A study of Mus musculus with 3 samples.

Results

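The 44 collagen chain genes of the mouse were followed across mesodermal cells of early embryos. They were taken as every row of the count matrix whose symbol was Col, a type number, the letter a and a chain number, which gave 44 of the 51923 genes of the matrix. By class there were 11 fibrillar chains, 6 type IV chains of basement membranes, 6 type VI chains of beaded filaments, 3 short-chain network chains, 9 fibril-associated chains (FACIT), 2 multiplexins, 4 transmembrane chains and 3 others. The cells came from C57BL/6 embryos that carried Mesp1-Cre, active in the early mesoderm, and the red fluorescent Ai9 reporter. Controls were Wls fl/+ and mutants Wls fl/fl, so controls also carried the Cre, the reporter and 1 floxed allele. Wls encodes a membrane protein that cells need to secrete Wnt ligands. Cells with the red reporter were sorted, which are cells with a history of Mesp1-Cre activity. Embryos were staged at E8.0 (3 mutant and 3 control samples), E8.5 (1 and 2) and E9.5 (6 and 6), and the per-cell table also holds a control of 28 cells with the stage E7.5. A sample is all cells with the same MULTI-seq lipid barcode, 22 samples in all, and is called by its barcode (Bar22, for example). The labels do not say whether a barcode held 1 embryo or several, so p-values measure the spread between barcode samples. Bar29 and Bar7, with 47.5 and 62.2% male cells, held cells of both sexes, so a sample cannot be taken as 1 embryo.

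Collagens are secreted or membrane proteins whose chains wind into triple helices of 3 chains. Fibrillar collagens (types I, II, III, V and XI) form the fibrils of connective tissue, cartilage and vessel walls, and type IV collagen forms the network of basement membranes. FACIT collagens bind to fibril surfaces, type VI forms beaded filaments around cells, and multiplexins sit at basement membranes. Before secretion the chains are hydroxylated on prolines and lysines, and outside the cell lysyl oxidases crosslink them. In the embryo of these stages mesoderm and its mesenchyme are a main source of such matrix, and Col2a1 marks future cartilage but is also transcribed in other embryonic tissues.

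Where 2 chains form 1 molecule, their genes lie side by side in some cases. In others they do not, as for Col1a1 on chromosome 11 and Col1a2 on chromosome 6. Col4a1 and Col4a2, whose products make the common type IV trimer, stood head to head on chromosome 8 with annotated 5′ ends that overlapped by 22 bases. Promoter windows (250 bases before to 50 after the RefSeq start, GRCm38.p6) were found for 35 of the 44 chains. The pair is shown because the ratio of its members is among the results. The Col4a1 window is chr8:11312777-11313076 on the minus strand and the Col4a2 window chr8:11312555-11312854 on the plus strand, each written 5′ to 3′ on its own strand. Capitals mark the 78 bases that both windows hold, which read as each other's reverse complement.
Col4a1: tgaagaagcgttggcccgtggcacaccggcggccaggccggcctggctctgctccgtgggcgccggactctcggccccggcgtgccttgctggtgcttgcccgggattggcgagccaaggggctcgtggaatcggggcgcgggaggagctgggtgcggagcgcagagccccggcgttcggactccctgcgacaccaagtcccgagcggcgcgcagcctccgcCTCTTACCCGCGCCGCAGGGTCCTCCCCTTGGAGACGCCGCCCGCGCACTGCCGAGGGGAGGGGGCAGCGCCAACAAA
Col4a2: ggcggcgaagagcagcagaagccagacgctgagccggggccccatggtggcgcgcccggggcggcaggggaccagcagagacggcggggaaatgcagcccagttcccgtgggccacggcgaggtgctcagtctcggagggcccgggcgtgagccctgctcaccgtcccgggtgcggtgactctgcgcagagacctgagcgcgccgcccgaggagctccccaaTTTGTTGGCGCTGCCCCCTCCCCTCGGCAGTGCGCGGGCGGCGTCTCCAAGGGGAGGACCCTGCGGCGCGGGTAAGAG
The third window, of Col1a2 (chr6:4505368-4505667, plus strand), belongs to a chain of type I collagen, whose levels are described below, and capitals mark CCAAT on either strand (CCAAT or ATTGG).
Col1a2: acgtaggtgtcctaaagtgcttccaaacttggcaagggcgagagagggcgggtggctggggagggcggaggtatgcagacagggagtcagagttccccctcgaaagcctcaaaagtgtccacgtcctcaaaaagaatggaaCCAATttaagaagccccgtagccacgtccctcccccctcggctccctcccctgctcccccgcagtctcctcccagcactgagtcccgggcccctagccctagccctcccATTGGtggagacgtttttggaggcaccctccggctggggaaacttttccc
CCAAT or its reverse was found in the windows of 13 of the 35 chains and in 37.4% of all 32851 promoter windows. GGGCGG or its reverse was found in 22 of the 35 chains and in 35.7% of all windows. A match of letters is not a binding site.

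The deposited counts of the 14777 cells summed to 331587989 UMIs (unique molecular identifiers, 1 per captured RNA molecule), and a cell held a median of 21739. Samples held 6 to 2508 cells. Levels are given as CPM, the UMIs of a gene scaled by the total UMIs of its sample (the usual CPM scale), not divided by transcript length since the kit reads transcript ends, and intervals cover counting error only. Group values leave out the E9.5 control Bar6, which held 6 cells and 134457 UMIs, while the tests kept it. Wls, the deleted gene, lay between 35.9 and 65.4 CPM in the controls of E8.0 to E9.5 and between 3.72 and 14.2 CPM in the mutants, in samples of at least 20 cells. Run 3 was shallower than the others, with a median of 11866 UMIs per cell. Of the cell barcode sequences, 23 occurred in 2 runs. All 3 E8.0 mutants were mostly male (89.5 to 91.1% of cells), while the E8.0 controls held 2.44, 2.45 and 47.5% male cells. At that stage genotype and sex cannot be told apart. At E9.5 the mutants Bar5, Bar19 and Bar21 held 84.2 to 85.1% male cells and the mutants Bar8, Bar10 and Bar20 2.14 to 2.98%. The E9.5 controls Bar4, Bar9, Bar22 and Bar23 held 1.15 to 1.98%, Bar7 62.2% and Bar6 100%.

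All 44 chains had at least 1 UMI, and 37 had enough to be tested. The remaining 7 (Col6a4, Col6a5, Col6a6, Col8a2, Col10a1, Col20a1 and Col28a1) averaged at most 0.315 CPM. Over the 20 samples of E8.0 to E9.5 with at least 20 cells, the chains together took 832 ± 247 CPM (SD). The 12 highest chains were Col3a1 (118 CPM), Col1a1 (91.5), Col4a1 (90.0), Col1a2 (80.3), Col18a1 (79.1), Col2a1 (59.7), Col26a1 (55.9), Col4a2 (41.0), Col5a2 (33.1), Col9a1 (32.8), Col23a1 (25.4) and Col5a1 (23.9). Fibrillar chains made up 50% of collagen CPM and type IV chains 19.95%. The short-chain network chains, which include the cartilage growth plate chain Col10a1, made up 0.125%. In bulk sums of this kind, fewer cells of a type and less RNA per cell cannot be told apart.

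**Figure D1:**
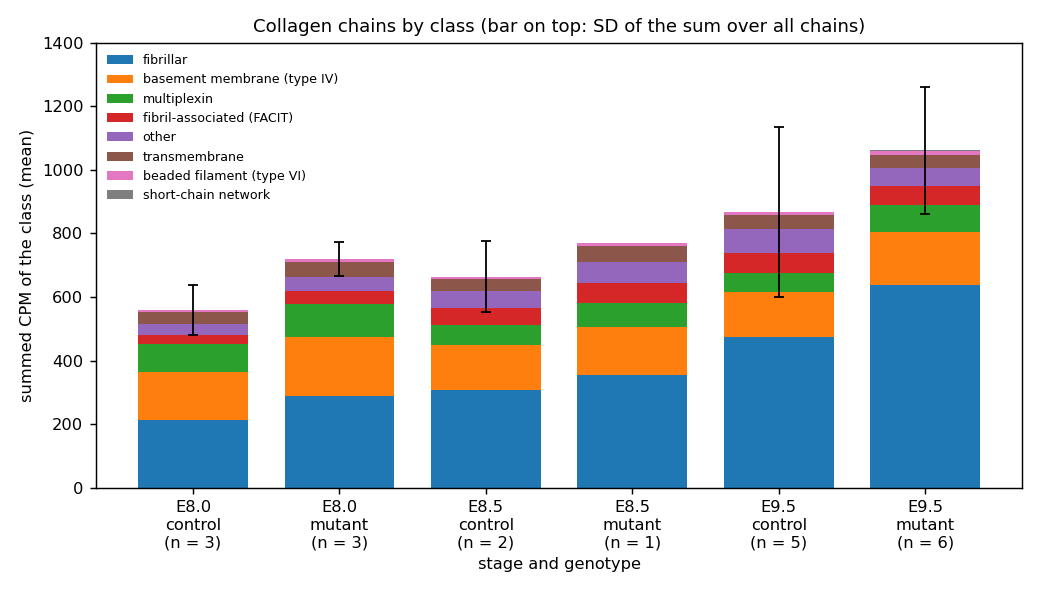
Summed CPM of the collagen chains by class (vertical axis) in each stage and genotype (horizontal axis), as means over barcode samples, with the SD of the sum over all chains where there was more than 1 sample. In controls the sum was 560 CPM at E8.0 and 867 CPM at E9.5, with fibrillar shares of 38.2% and 54.2%, and in mutants 719 and 1062 CPM, with shares of 39.8% and 59.7%.

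From E8.0 to E9.5, 16 collagen chains rose and 1 fell, among them fibrillar, fibril-associated and type VI chains. Col3a1, the chain of type III collagen found with type I in vessels and loose connective tissue, moved furthest. Its E8.0 controls had 15.6, 37.2 and 16.9 CPM and its E8.0 mutants 23.2, 36.6 and 34.5 CPM. E9.5 controls lay at 232, 212, 102, 108 and 195 CPM, and the 6 mutants of that stage ranged from 118 to 219 with a median of 185. Every E9.5 sample of at least 20 cells was above every E8.0 sample. The fitted log2 difference was 2.73 (SE 0.27, edgeR adjusted p = 5.98e-07). In all, 17 of the 37 chains tested passed, 16 higher and 1 lower at E9.5. The 16 include Col6a3, Col8a1 and Col15a1, whose calls are no support, as given below. Over all 20831 genes tested 19.5% passed, 10.4% higher and 9.04% lower. The median log2 difference of the chains was 0.48, and that of all genes 0.003. The sum over all chains was 560 ± 78.4 CPM (SD, n = 3) in E8.0 controls and 867 ± 268 CPM (n = 5) in E9.5 controls.

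Among fibrillar chains, 5 of 11 rose. Besides Col3a1 these were Col11a1 (log2 difference 1.78), Col1a1 (1.49) and Col1a2 (0.97), the 2 chains of type I collagen, and Col5a2 (0.84). Col11a1 forms fibrils with Col2a1, whose own difference was 0.20 (adjusted p = 0.575). That value averages controls, with Col2a1 means of 48.5 CPM at E8.0 and 74.55 CPM at E9.5, and mutants, with 70.8 and 54.0 CPM, for which the interaction is given below. The other fibrillar chains did not pass. Of the type VI chains Col6a1 rose by 0.86 and Col6a2 by 0.51. Col6a2 means were 2.995 and 3.35 CPM in E8.0 and E9.5 controls and 3.55 and 5.08 CPM in mutants. Col6a3, with 2 to 11 UMIs in each E8.0 sample, was too low to be tested within E8.0. It passed the filter on low counts through other samples, so its call is no support and no fold is given. The Col6a2 call (adjusted p = 0.0398) was lost without any 1 of 11 samples (Bar9, Bar19 to Bar25, Bar27, Bar28 or Bar29), with an adjusted p up to 0.0986. Among FACIT chains 4 of 8 tested rose: Col16a1 (1.72), Col9a2 (1.59), Col14a1 (1.12) and Col9a1 (1.07). Col8a1, a short-chain collagen of vessel and valve matrix, also passed as higher in the fit over both genotypes. With 0 to 7 UMIs in each E8.0 sample it was too low to be tested within E8.0. It passed the filter through other samples, so its call is no support and no fold is given. Its means were 0.165 and 0.569 CPM in E8.0 and E9.5 controls and 0.148 and 1.303 CPM in mutants, so its counts were low. Col25a1 (1.70), a transmembrane chain, and Col26a1 (0.85) rose as well. Col15a1, a multiplexin, had 3 to 10 UMIs in each E8.0 sample and was too low to be tested within E8.0. It too passed the filter through other samples, so its call is no support and no fold is given.

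None of the 6 type IV chains passed. Their median difference was 0.004, and Col4a1 stood at 88.3 ± 20.6 CPM (SD, n = 3) in E8.0 controls and 83.8 ± 21.2 CPM (n = 5) in E9.5 controls. The fitted difference of Col4a1 was -0.10 (SE 0.12). Col13a1, a transmembrane chain, was the 1 chain that fell, by 0.63 (SE 0.13, adjusted p = 0.00202). Stage and run overlap, since all E8.0 samples lay in run 1. Within run 1 alone 22 chains passed, with the same 17 among them. The share of all genes that passed in that fit is not given here.

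Lineages differed in which chains were high. A cell was assigned to a lineage where at least 3 of its 5 markers had a UMI and no other lineage reached that. This placed 8169 of the 14777 cells (55.3%), with 4691 positive for none and 1917 for several. Counts were summed per sample and lineage where at least 20 such cells were present, and each of 9 lineages was compared with the mean of the others within samples. For every lineage but blood, that mean includes blood, in which the median log2 difference of the chains was -2.83. A chain called higher in a lineage is thus higher than a mean with blood in it, not than each other lineage. For 25 chains a test was possible. Between lineages much of the transcriptome differs, so the share of all genes that passed is given beside each count.

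Blood cells (markers including Gata1, Klf1, Alas2 and Tal1) had the least collagen, 74.9 CPM over all chains against 813 to 1492 in the other 8 lineages. In blood 23 of the 25 chains were lower and 1 was higher (all genes, 41.3% and 41.7%). In droplet data free RNA gives stray UMIs, and blood cells give the background for the cell shares below. After thinning each cell to 5000 UMIs, Col1a1 was found in 2.37% of 2151 blood cells (12.6% unthinned, median depth 28200 UMIs). The chain higher in blood was Col4a3 (log2 difference 0.98), a chain of kidney glomerular basement membrane. It was counted at 5.91 ± 2.35 CPM in blood (SD, n = 16) and between 4.08 and 9.40 CPM in the other lineages, so its CPM in blood lay within the range of the others. An opposite-strand transcript, C430014B12Rik, overlaps exons of Col4a3. With median-of-ratios factors in place of TMM the median of all genes in blood moved by -0.195.

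Endothelial cells (Cdh5, Pecam1, Tie1, Emcn, Tek) were dominated by basement membrane collagens. Col4a1 stood at 355 ± 90.0 CPM and Col4a2 at 160 ± 27.6 CPM (SD, n = 8), log2 differences of 2.37 and 2.42. Col18a1, the multiplexin that holds the endostatin fragment, stood at 245 ± 38.6 CPM (1.91), and Col23a1 was higher by 1.48. Col15a1, the other multiplexin, had few UMIs outside these cells. It had 25.2 ± 23.2 CPM in endothelial sums, from 1.33 to 55.6, and a mean of at most 0.567 CPM in the other 8 lineages. These sums held 107 UMIs of Col15a1, those of the other lineages 0 to 9 each. It passed the filter on low counts through the endothelial sums, so its call there is no support and no fold is given. It had a UMI in 24.1% of 315 endothelial cells but 0.138% of blood cells. After thinning the share was 7.67% of 313 endothelial cells. Leaving out Col15a1, 5 chains were higher and 11 lower (all genes, 19.9% and 20.5%). The lower chains included both type I chains, Col2a1, Col3a1, Col9a1 and Col6a1. With 2 of 5 markers for a cell in place of 3, 4 of the 17 calls (Col15a1 counted) were left and Col6a1 turned to 0.64.

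Cardiomyocytes (Tnnt2, Myh6, Ttn, Actn2, Myl7) held the highest Col2a1 of the 9 lineages, 231 ± 73.7 CPM (SD, n = 15), with a log2 difference of 3.54 (SE 0.11, adjusted p = 1.20e-49). Col2a1 was present in 46.3% of cardiomyocytes after thinning, against 0.837% of blood cells. Col12a1, a FACIT chain of dense connective tissue, stood at 21.95 ± 10.8 CPM there (3.57) and at 10.8 CPM or below elsewhere. The X-linked type IV chains were also higher, Col4a5 by 2.07 and Col4a6 by 1.39, as were Col6a1 (1.68), Col6a2 (1.46), Col13a1 (1.51) and Col5a1 (1.24). Of the 25 chains 13 were higher and 4 lower (all genes, 28.7% and 28.1%). The lower ones were Col23a1, Col26a1, Col3a1 and Col1a2. With 2 of 5 markers 9 calls were made, and Col3a1 turned to 0.19 and Col1a2 to 0.36.

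Type I collagen was high in allantois and proepicardial cells. In allantois and posterior lateral plate cells (Tbx4, Hoxa10, Hoxa11, Hoxc10, Pitx1) Col1a1 stood at 267 ± 134 CPM (SD, n = 6) and Col1a2 at 233 ± 120 CPM, log2 differences of 2.90 and 2.35. Col2a1 was lower there by 2.62. In all 6 chains were higher and 2 lower (all genes, 15.3% and 12.2%). In proepicardial cells (Wt1, Tbx18, Tcf21, Upk3b, Upk1b), which give rise to the epicardium, Col1a1 stood at 276 ± 231 CPM (SD, n = 5) and was higher by 1.75. Its median was 198 CPM, since 1 mutant sum lay at 655 CPM, and all 5 sums were of E8.5 or E9.5 while the other 8 lineages also had E8.0 sums. The type IV chains Col4a5 (2.08) and Col4a6 (2.37) were higher there while Col4a1 was lower by 0.82. The count was 7 higher and 1 lower (all genes, 10.5% and 7.17%). Splanchnic cells (Foxf1, Osr1, Wnt2, Hoxb1, Barx1) had 9 chains higher and 5 lower (20.7% and 15.5%), led by Col4a6 (1.40), Col3a1 (1.20), Col4a5 (1.06), Col9a1 (0.97) and Col1a1 (0.96). Their sum over all chains, 813 CPM, was the lowest of the lineages compared other than blood. Col1a1, Col1a2, Col3a1 and Col5a2 were higher in each of the 3 lineages. With 2 of 5 markers the allantois had 4 calls and its Col3a1 turned to -0.064, and there was no proepicardial sum.

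Cranial mesoderm (markers including Ebf1, Ebf2, Ebf3 and Foxl2) had the largest collagen sum, 1492 CPM, and the most higher chains, 16 higher against 2 lower (all genes, 19.3% and 18.2%). Among the higher chains were Col2a1 (2.71), Col11a1 (2.47), Col9a1 (2.37) and Col9a2 (2.28). The largest differences after Col2a1 also included Col23a1 (2.63, 98.5 ± 15.6 CPM, SD, n = 14), a transmembrane chain. Col18a1 was lower by 1.41. Paraxial cells (Meox1, Meox2, Tcf15, Uncx, Pax1), the somite lineage, had 11 chains higher and 1 lower (22.9% and 19.2%), led by Col26a1 (1.97), Col2a1 (1.60), Col25a1 (1.58) and Col9a1 (1.49). In the anterior second heart field (Isl1, Tbx1, Fgf10, Fgf8, Mef2c) 8 were higher and 3 lower (19.1% and 13.7%). Col9a2 (3.00) led there, at 15.6 ± 13.9 CPM (SD, n = 12), followed by Col26a1 (1.72), Col25a1 (1.49) and Col13a1 (1.39). The 3 lower chains were Col1a1 (by 0.91), Col1a2 and Col3a1. With 2 of 5 markers 7 calls were made and Col3a1 turned to 0.022.

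**Figure D2:**
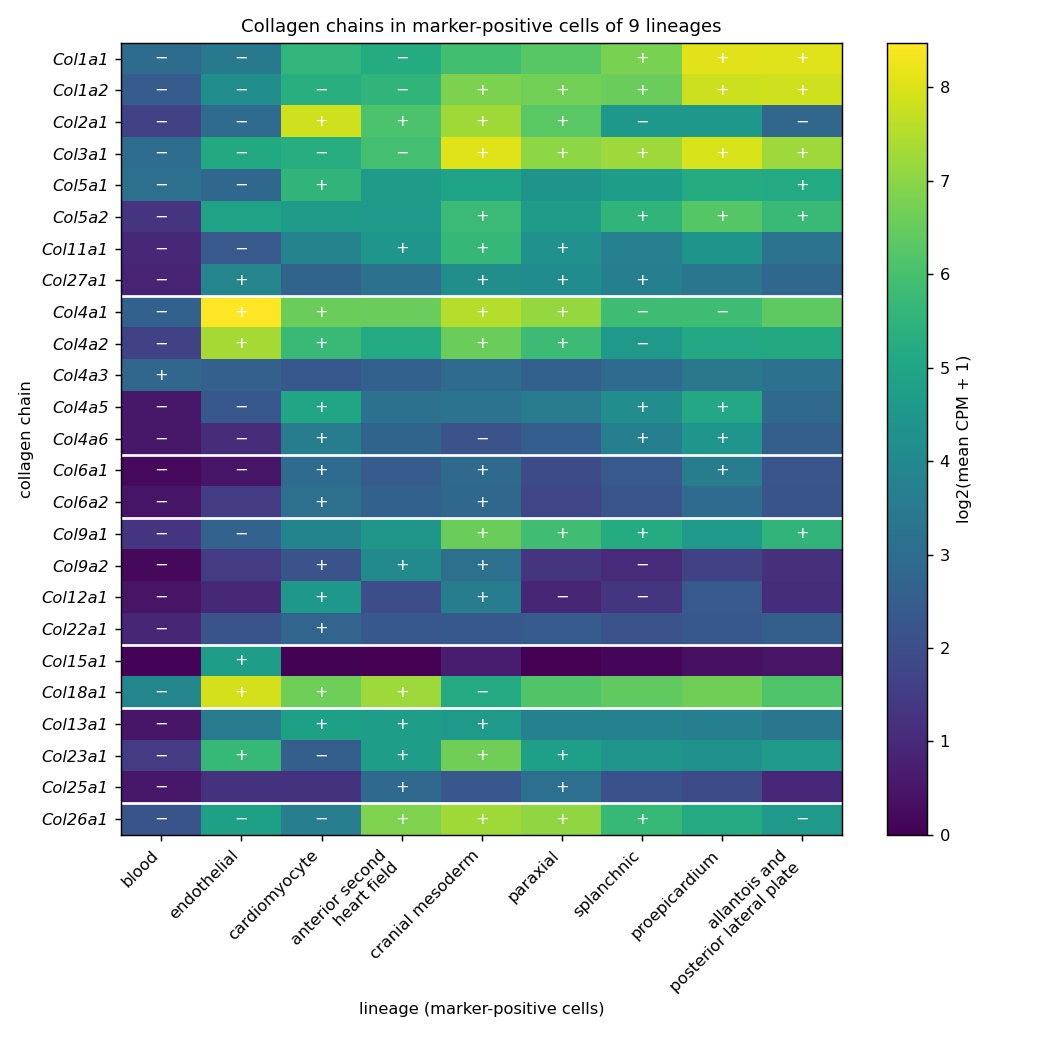
Mean level of the 25 chains tested between lineages (rows, grouped by class) in marker-positive cells of 9 lineages (columns), as log2(mean CPM + 1). A plus or minus sign marks chains higher or lower than the mean of the other lineages at an edgeR adjusted p below 0.05, so that Col2a1 is marked higher in cardiomyocytes, cranial mesoderm, paraxial and anterior second heart field cells.

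The rise of Col3a1 was seen in several lineages, given here as values without a test. In cranial mesoderm of controls it went from 41.1 ± 22.9 CPM at E8.0 (SD, n = 3) to 468 ± 35.6 CPM at E9.5 (n = 4). In splanchnic cells of controls it went from 45.9 ± 41.7 (n = 3) to 182 ± 29.3 CPM (n = 4). In paraxial cells of controls it was 15.0 CPM in the 1 E8.0 sample and 208 ± 83.6 CPM at E9.5 (n = 4).

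Between genotypes over all stages, 7 of the 37 chains tested were higher in mutants and none was lower. Of all 20831 genes 10.2% passed and 4.47% were higher. Col6a1 was higher by 0.57, Col1a1 by 0.75, Col1a2 by 0.48, Col18a1 by 0.36, Col4a5 by 0.58, Col14a1 by 0.56 and Col5a1 by 0.31, with adjusted p from 0.00844 (Col6a1) to 0.045 (Col5a1). The median over the chains was 0.10, and over all genes 0.018. Without the E9.5 samples 0 chains passed in edgeR, and within run 1, run 2 or run 3 alone 0, 0 and 1. It was 3 without Bar22 or Bar23 (both E9.5 controls), and 4 without Bar19 or Bar9. Single samples ended the calls of Col5a1 (any of 13), Col4a5 (Bar9, Bar19, Bar22 or Bar23), Col14a1 (Bar19, Bar22, Bar23 or Bar28) and Col18a1 (Bar9, Bar22 or Bar23). With the share of male cells as a covariate Col6a1 (adjusted p = 0.0883), Col14a1 (0.191) and Col18a1 (0.0793) did not pass. Without blood, endothelial, neural and endodermal cells Col18a1, Col4a5 and Col5a1 did not pass.

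At E9.5 type I collagen was higher in mutants. Col1a1 stood at 102, 99.1, 68.7, 29.3 and 54.3 CPM in controls, and at 106 to 257 CPM in the 6 mutants with a median of 174. All 6 mutants were above all 5 controls of at least 20 cells. The lowest mutant, Bar5, held 98 UMIs of Col1a1. The log2 fold change was 1.27 (SE 0.18, edgeR adjusted p = 0.00055), and it passed in all 12 fits that left out 1 sample, with values from 1.15 to 1.41. Col1a2, its partner in the type I trimer, stood at 113, 104, 56.5, 37.3 and 64.3 CPM in controls and 63.6 to 174 CPM in mutants with a median of 126. These groups overlapped, since the mutant Bar5 lay at 63.6 CPM, and the fold change was 0.63 (SE 0.15, adjusted p = 0.0169). Without Bar23 its adjusted p was 0.0579, and within run 1 alone 0.0846.

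Col4a5, a type IV chain encoded on the X chromosome, was higher by 1.00 (SE 0.18, adjusted p = 0.00353). Controls had 10.5, 10.2, 7.27, 3.35 and 8.88 CPM, and the 6 mutants 10.8 to 26.7 CPM with a median of 18.6, so the groups did not overlap. The lowest mutant, Bar5, held 10 UMIs of Col4a5, so counting error covers its gap to the highest control. With the share of male cells as a covariate the fold change was 1.17 (adjusted p = 0.000384). Its head-to-head neighbour Col4a6, 1308 bases away, differed by 0.70 (adjusted p = 0.0889) and did not pass. The common type IV chains Col4a1 and Col4a2 had fold changes of 0.03 each (SE 0.11 and 0.14).

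Col14a1, a FACIT chain, was higher by 0.81 (adjusted p = 0.0207). Its E9.5 controls had 2.78, 3.05, 2.54, 0.838 and 3.42 CPM and its 6 mutants 4.31 to 5.76 CPM with a median of 4.86, without overlap. Some of these rest on few UMIs, with 4 in the lowest mutant (Bar5), 9 in the mutant Bar8 and 2 in the lowest control (Bar7). The share of all genes without overlap at E9.5 was not computed. Col6a1 was higher by 0.60, Col5a2, a type V chain that sets fibril diameter, by 0.52 and Col18a1 by 0.51, with adjusted p of 0.0466, 0.048 and 0.0328. In each of these the groups overlapped. Each of these 4 calls was lost without some single samples: Col14a1 without Bar19, Bar22 or Bar23 (adjusted p up to 0.117), Col18a1 without Bar8, Bar9, Bar22 or Bar23 (up to 0.119), Col6a1 without any of 8 samples (up to 0.202) and Col5a2 without any of 9 (up to 0.130). With the share of male cells as a covariate the adjusted p was 0.0579 for Col14a1 and 0.111 for Col6a1, and Col5a2 did not pass within run 1 alone.

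Col2a1, Col9a1 and Col26a1 were lower in E9.5 mutants, while Col11a1 (0.19, adjusted p = 0.485) and Col9a2 (0.002, adjusted p = 0.999) did not pass. Col2a1 stood at 85.7, 102, 34.4, 69.5 and 81.6 CPM in controls and 18.3 to 85.4 CPM in mutants with a median of 56.1, which overlapped. Its log2 fold change was -0.59 (SE 0.13, adjusted p = 0.0109), and -0.46 without Bar23 (adjusted p = 0.059). Col9a1, which decorates type II fibrils, had -0.50 (adjusted p = 0.0492) and Col26a1 -0.45 (adjusted p = 0.0479). These 2 calls were each lost without any 1 of 10 of the 12 samples, and in DESeq2, and with the male share their adjusted p was 0.156 and 0.128. In total 10 of 33 chains passed, 7 higher and 3 lower, against 10.3% of all 17227 genes tested (5.71% higher and 4.55% lower). The count was 2 without Bar23 and 4 without Bar22, and 6 without Bar8, Bar9, Bar10 or Bar19.

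**Figure D3:**
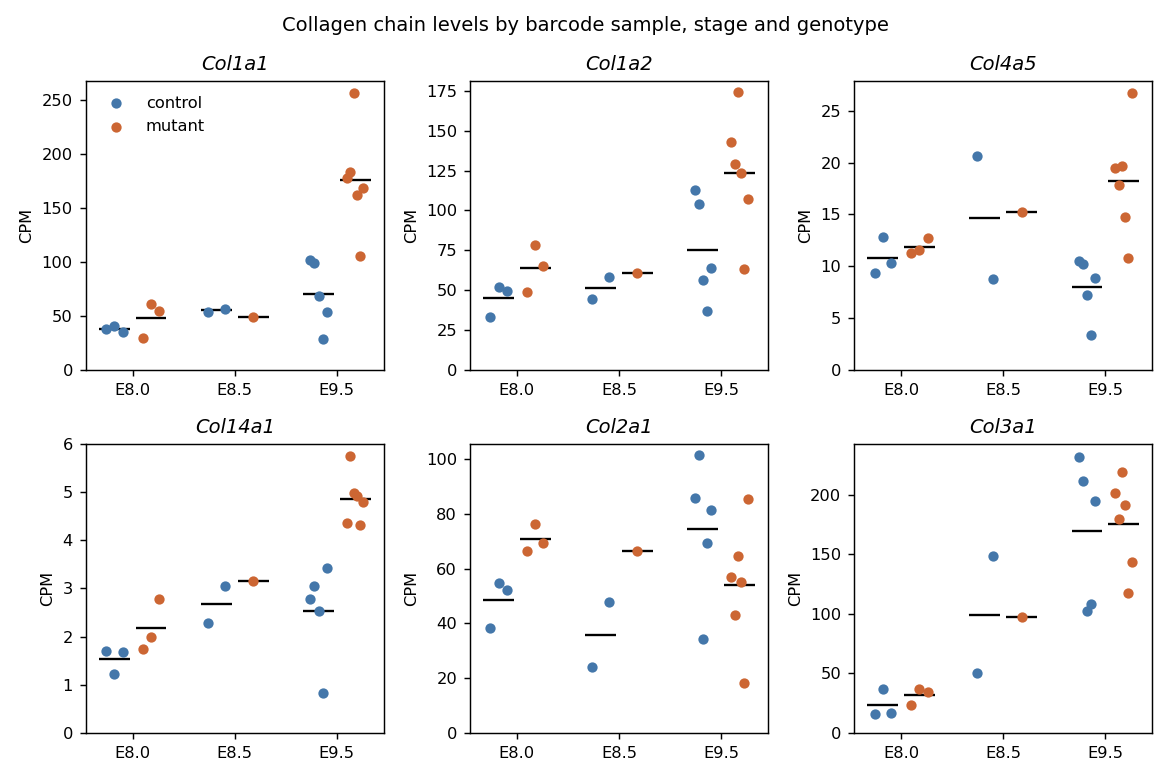
CPM (vertical axes) of 6 collagen chains in each barcode sample of at least 20 cells by stage (horizontal axes) and genotype (blue controls, orange mutants), with group means as black lines. At E9.5 the Col1a1, Col4a5 and Col14a1 points of mutants all lie above those of controls, while Col2a1 and Col3a1 overlap.

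At E8.0 no chain of the 30 tested passed in edgeR or DESeq2, and 4 had an unadjusted p under 0.05, all higher in mutants. Of all 16416 genes tested 0.0244% passed, and 1615 had an unadjusted p under 0.05. The chains' median fold change was 0.27 on the log2 scale, that of all genes 0.013, and 25 of the 30 were above 0. Col2a1 stood at 38.5, 54.9 and 52.2 CPM in controls and 66.5, 76.5 and 69.6 CPM in mutants, without overlap (log2 0.47, SE 0.13, adjusted p = 0.496). Without blood, endothelial, neural and endodermal cells its groups overlapped, at 61.2 to 87.9 CPM in controls and 79.8 to 99.6 CPM in mutants. Over all cells the E8.0 mutants also lay above all controls for Col4a2, Col5a1, Col6a1, Col10a1, Col14a1, Col18a1 and Col22a1. Col5a3, with 0 CPM in the mutants, lay the other way. Col10a1 rested on 0 to 2 UMIs in each control and 3 to 4 in each mutant. Without blood, endothelial, neural and endodermal cells Col4a2 and Col5a1 overlapped as well, while Col6a1, Col10a1 and Col14a1 did not. The share of all genes without overlap at E8.0 was not computed, so the list is not read as a result about collagens. Col1a1 stood at 38.3, 40.5 and 35.6 CPM in controls and 29.5, 61.0 and 55.1 CPM in mutants, with overlap (0.27). Blood-positive cells, which have little collagen, made up 20.4 ± 10.4% of the E8.0 controls (8.45 to 27.7%) and 8.43 ± 4.85% of the mutants (2.86 to 11.7%, SD, n = 3 each). Without blood, endothelial, neural and endodermal cells the sum over all chains was 725 ± 131 CPM in controls and 811 ± 65.7 CPM in mutants, against 560 ± 78.4 and 719 ± 53.9 CPM over all cells. At E8.5, with 1 mutant, no test is given. Col1a1 was 49.3 CPM in the mutant (95% Poisson interval 45.2 to 53.8), and 53.8 (39.6 to 71.6) and 57.1 CPM (55.2 to 59.0) in the controls, the first of which held 34 cells.

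For Col2a1 the effect of genotype differed between the stages. From 0.47 in E8.0 samples it turned to -0.59 in E9.5 samples, and the interaction term was -1.05 (SE 0.20, edgeR adjusted p = 0.0209). Col2a1 was the 1 chain of 34 to pass, against 0.464% of all genes. The call was lost without Bar23, Bar24, Bar25, Bar27 or Bar28 (adjusted p up to 0.0812). Over all 18 fits that left out 1 sample its value lay between -1.17 and -0.93. The interaction of Col1a1 was 1.00 (SE 0.31, adjusted p = 0.193) and that of Col4a5 0.97 (SE 0.27, adjusted p = 0.137), so a difference between the stages was not shown for them.

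**Figure D4:**
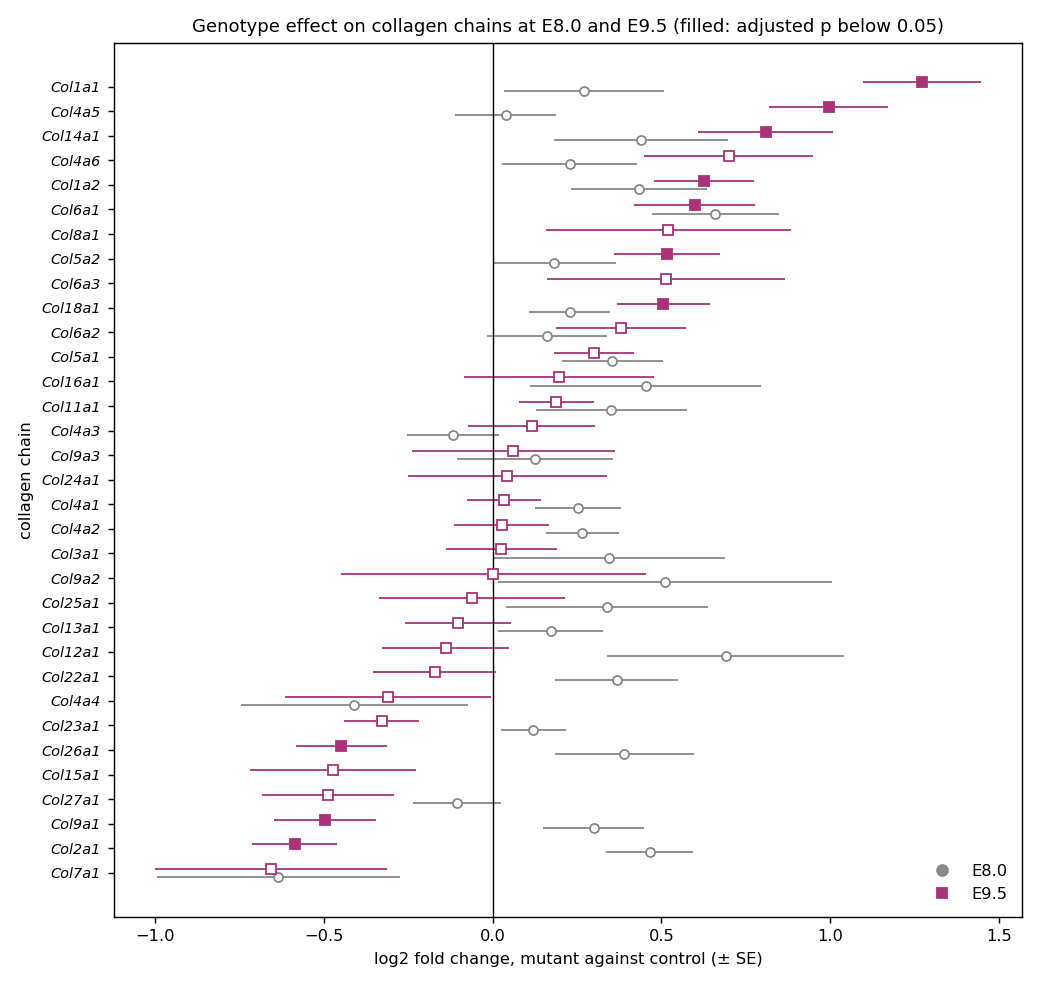
Log2 fold change of mutants against controls (horizontal axis, ± SE) for the 33 collagen chains tested at E9.5 (rows), at E8.0 (grey circles, where tested) and E9.5 (purple squares), with filled symbols for an edgeR adjusted p below 0.05. Col1a1 (1.27) leads and Col2a1 (-0.59) is among the lowest at E9.5, and no E8.0 symbol is filled.

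The make-up of the samples differed beside these results. At E9.5, cranial mesoderm, which has high Col2a1, Col9a1 and Col26a1, made up 6.82 ± 2.81% of cells in controls (SD, n = 5) and 2.94 ± 1.78% in mutants (n = 6). Paraxial cells, also high in these chains, made up 8.49 ± 4.09% and 5.65 ± 3.15%. Cardiomyocytes, with the highest Col2a1, made up 6.02 ± 3.06% in controls and 7.97 ± 5.52% in mutants, the opposite direction to Col2a1 over all cells. Proepicardial cells, high in Col1a1 and Col4a5, made up 1.38 ± 0.34% and 2.84 ± 0.98%. Allantois and posterior lateral plate cells, with the largest Col1a1 difference between lineages, made up 1.79 ± 1.18% in controls and 0.452 ± 0.552% in mutants, the opposite direction to Col1a1 over all cells. Blood made up 20.0 ± 12.5% and 16.3 ± 8.12%. Without blood, endothelial, neural and endodermal cells the E9.5 fold changes were 1.21 for Col1a1, 0.93 for Col4a5 and -0.67 for Col2a1, each past the threshold. In that fit 13 chains passed (8 higher and 5 lower). The share of all genes that passed in it is not given here, so the count is not read as a result about collagens. The part of the mesodermal shares in the result was not tested other than within lineages.

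Within lineages, the genotype effect on collagens was mostly below the threshold. Col1a1 was higher in mutant cranial mesoderm by 1.01 (SE 0.23, adjusted p = 0.0374), the 1 call among 22 chains (all genes, 1.39%, with 0.819% higher). At E9.5 it stood at 42.9 ± 20.0 CPM in controls (23.8 to 68.0, SD, n = 4) and 142 ± 38.2 CPM in mutants (103 to 179, n = 3), and at E8.0 at 28.1 ± 14.0 and 39.4 ± 13.2 CPM (n = 3 each). The call was lost without any 1 of 7 of the 14 samples (Bar19 to Bar24 and Bar27, adjusted p up to 0.228). It was also lost with cells of several lineages kept (0.44, adjusted p = 0.226) and with no filter on low counts (0.93, adjusted p = 0.208). In splanchnic cells the fitted effect on Col1a1 was 0.55 (SE 0.23, edgeR adjusted p = 0.345), with 102 ± 34.8 CPM in E9.5 controls (n = 4) and 243 ± 60.3 CPM in mutants (n = 3). In both lineages the E9.5 mutant sums (Bar19, Bar20 and Bar21) were all of run 1. The controls were of run 1 (Bar22 and Bar23), run 2 (Bar4) and run 3 (Bar9). The fits hold a term for the run, but these means do not. In proepicardial cells of E9.5, with 2 samples a group, Col1a1 was 136 and 198 CPM in controls and 318 and 655 CPM in mutants. In the paraxial lineage the effect was 0.24 (adjusted p = 0.375). The fitted effect of Col1a1 was above 0 in the 6 lineages where it was tested, from 0.24 to 1.01.

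Col3a1 was lower in mutant paraxial cells by 0.82 (SE 0.15, edgeR adjusted p = 0.00194), the 1 call among 20 chains (all genes, 8.79%, with 4.25% lower). It passed in all 13 fits that left out 1 sample, with values from -1.0 to -0.69. Paraxial E9.5 controls had 97.1 to 295 CPM (208 ± 83.6, SD, n = 4) and mutants 96.3 to 183 CPM (140 ± 44.2, n = 4), which overlapped. At E8.5 the control had 177 and the mutant 71.0 CPM. In cranial mesoderm its effect was 0.16 (adjusted p = 0.772) and in splanchnic cells 0.36 (adjusted p = 0.584). Whether the effect differs between lineages was not tested. Over all cells of E9.5 the effect on Col3a1 was 0.03 (SE 0.16).

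No chain passed in the 5 other lineages, in edgeR or in DESeq2. These were blood (13 chains tested, all genes 0.00879%), endothelial (12, 0.105%), cardiomyocyte (23, 0.942%), anterior second heart field (17, 0.0766%) and splanchnic (24, 0.0331%). Chains with an unadjusted p under 0.05 numbered 1, 3, 5, 1 and 4 in that order. Over all genes the numbers at the same threshold were 806 of 11382, 516 of 8539, 1395 of 11142, 841 of 9140 and 1491 of 12099. The effect on Col2a1, lower over all cells at E9.5, was 0.43 in cardiomyocytes (SE 0.18), -0.31 in paraxial cells (SE 0.13) and -0.11 in cranial mesoderm (SE 0.18) over all stages, and passed in none of them. These fits average the stages, between which the effect on Col2a1 over all cells turned. They do not show whether the E9.5 difference lay within a lineage.

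Some of the genes that process or bind collagen were higher in mutants. Of a list of 37, which includes 6 receptors, 9 of the 34 tested were higher in mutants over all stages and none was lower. At E9.5 8 of 31 were higher. Over all genes 4.47% and 5.71% were higher. The list was chosen with earlier results of these data known, so counts above these shares are no support. Of the 23 others at E9.5, which did not pass, values ranged from -0.52 (Pcolce2) to 0.66 (Adamts2). The prolyl 4-hydroxylase subunits P4ha1 and P4ha2, which stabilise the triple helix, had E9.5 fold changes of 1.56 (SE 0.16, adjusted p = 3.8e-05) and 1.87 (SE 0.17, adjusted p = 1.2e-05). P4ha1 stood at 43.6 to 63.3 CPM in E9.5 controls (median 56.4, n = 5) and 112 to 223 CPM in mutants (median 173, n = 6), without overlap. P4ha2 stood at 22.2 to 37.3 and 72.5 to 185 CPM, also without overlap. The lysyl hydroxylase Plod2 (1.14), the lysyl oxidases Lox (1.18) and Loxl2 (0.98), the hydroxylase subunit P4hb (0.44), P3h4 (0.38) and the collagen receptor Ddr1 (0.83) passed too, and Itga1, a collagen-binding integrin, passed over all stages (0.56). Of chaperone and export genes 0 of 6 passed at E9.5, and of propeptide cleavage genes, which include the enhancer Pcolce, 0 of 5. The genotype effect was larger at E9.5 than at E8.0 for P4ha1 (interaction 1.25, adjusted p = 0.0252) and P4ha2 (1.48, adjusted p = 0.0209). At E8.0 none of 30 listed genes passed in edgeR.

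From E8.0 to E9.5, 9 listed genes passed as higher and 3 as lower of 34 (Pcolce2, Mia3 and P3h1), where 10.4% of all genes were higher and 9.04% lower. The fit averages over both genotypes. For 4 of the 9 the control means hardly differed between E8.0 and E9.5: P4ha1 (55.7 and 55.4 CPM), P4ha2 (32.9 and 31.6), Plod2 (43.6 and 41.9) and Loxl2 (44.8 and 47.65). Their mutant means were 73.0 and 167 CPM for P4ha1, 45.4 and 120 for P4ha2, 53.65 and 96.3 for Plod2 and 57.9 and 99.1 for Loxl2. Pcolce, an enhancer of procollagen cleavage, rose by 1.66, the collagen receptor Ddr2 by 1.33, P3h3 by 1.16 and P3h4 by 0.62. Lox, also among the 9, lay at 0.233 to 0.313 CPM in E8.0 controls and 0.499 to 0.645 CPM in E8.0 mutants. It was too low to be tested within E8.0 and passed the filter through other samples. Its call is therefore no support and no fold is given.

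Ratios of partner chains were compared over the 20 samples, some of which share a run. The ratio of Col4a1 to Col4a2 lay between 1.78 and 2.93 (median 2.21), and that of Col6a1 to Col6a2, which lie 85161 bases apart on chromosome 10, between 0.63 and 1.25 (median 1.01). The ratio of Col1a1 to Col1a2 spanned 0.60 to 1.66 (median 0.97). Col9a1 to Col9a2 spanned 1.3 to 22.7. Col1a1, the chain described most, was most like 2610528A11Rik (Spearman rho 0.91), Tmem151a (0.90) and its partner Col1a2 (0.90) of the 18820 genes compared over those 20 samples. This is a description, since the samples pool stages and genotypes.

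**Figure D5:**
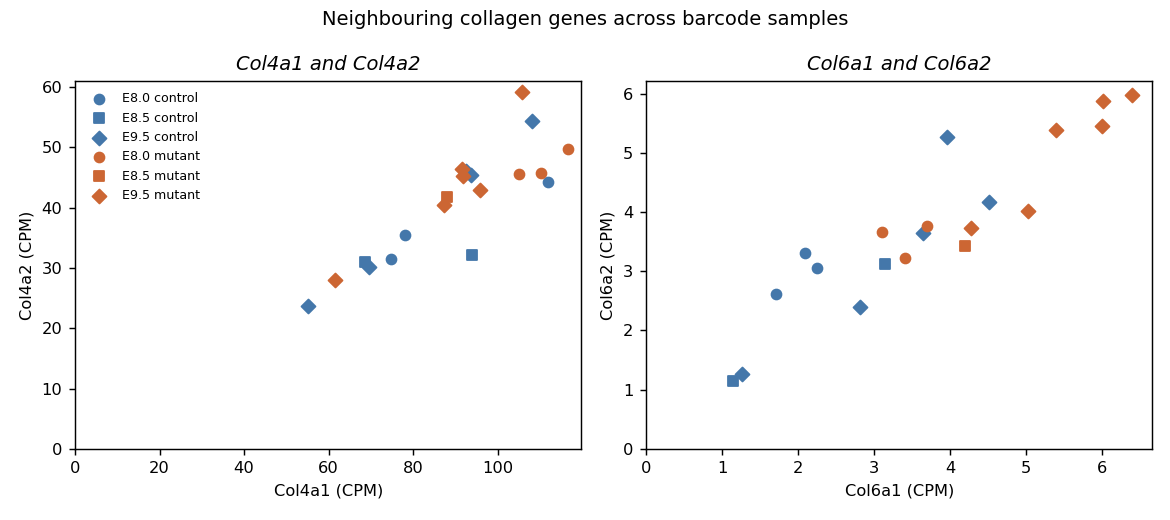
Levels (CPM, both axes) of the neighbouring genes Col4a1 and Col4a2 (left) and Col6a1 and Col6a2 (right) in each barcode sample, by stage (symbol) and genotype (colour). Samples high in one gene of these pairs were high in the other (Spearman rho 0.80 and 0.93), with Col4a1 at 1.78 to 2.93 times Col4a2. Other neighbours are not shown, such as Col4a3 and Col4a4, 71 bases apart, with a rho of 0.056 and means of 5.48 and 0.93 CPM.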

How the data were processed

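UMI counts were measured in Mesp1-Cre lineage cells with the 10x Chromium v3 kit. The authors mapped reads with kallisto and bustools and split samples by MULTI-seq barcode, per the labels' descriptions. The submitters' processing notes name kallisto, bustools 0.46.1, Cell Ranger and GRCm38. How strand was used and how cells were filtered is not given in the sources used here. The deposited matrix holds raw counts (51923 genes, 14777 cells) without normalization, and the authors' per-cell table gives run, barcode, stage and condition. Its words wildtype and knockout were read as Wls fl/+ and Wls fl/fl.

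Counts were summed per barcode sample (22) and, in marker-positive cells, per sample and lineage. edgeR 4.0.16 in R 4.3.3 (filterByExpr, TMM, quasi-likelihood F test, two-sided, Benjamini-Hochberg over all genes, 0.05) tested genotype with stage and run as terms where these varied, stages with genotype as covariate, the interaction, and lineages with the sample as block. The fits were tested on simulated data. DESeq2 1.42.0, other size factors, no filter, other gates and left-out samples were alternatives. CPM and Poisson intervals were computed with Python 3.11.15. Doublets were not called, and cells positive for several lineages were left out of lineage sums. Some marker names are not reported here. Group values need 20 cells a sample. Positions come from GENCODE on GRCm38, promoters from RefSeq.

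The members, the biosynthesis list and the markers were chosen with earlier results of these data known. Named are the chains that passed, the 12 with the highest mean CPM, the biosynthesis genes that passed and the 3 genes most like Col1a1.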

Additional observations from a re-analysis of the deposited data

Results flagged for a closer look

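Single samples far from the rest of their group were looked for in 48 groups of 24 chains, and 3 were found, where chance gives about 1 in 20. Only the controls and mutants of E9.5 had enough samples (at least 4) to be looked at, and all 3 lay in the mutants. Col5a1 stood at 11.9 CPM in Bar5, while the other mutants had 29.9 to 37.5 CPM. Col9a2 stood at 21.6 CPM in the same sample, which held 57 cells, against 2.75 to 5.10 CPM in the others. Col13a1 stood at 14.9 CPM in Bar8 (168 cells), against 9.25 to 10.8 CPM. The cause was not tested.

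By a test of the difference itself, mutants departed from controls otherwise at E9.5 than at E8.0 for 1 chain and 2 processing enzymes. The E9.5 effect minus the E8.0 effect was -1.05 for Col2a1, 1.25 for P4ha1 and 1.48 for P4ha2 (log2, edgeR adjusted p of 0.0209, 0.0252 and 0.0209). All E8.0 mutants were mostly male, and with the share of male cells as a covariate the Col2a1 difference was -1.20 (adjusted p = 0.0045). Since genotype and sex cannot be told apart at E8.0, this covariate cannot separate them there.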

How the results depend on the processing

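Counts of chains past the threshold are given, without the share of all genes in each fit. A higher or lower count is therefore not read as a result about collagens. For genotype over all stages (7) the count was 0 without the E9.5 samples, 0 in run 1 alone, 0 in run 2 alone and 1 in run 3 alone, and 3 to 8 when 1 sample was left out. At E9.5 (10) it was 2 to 13 over all alternatives and 2 to 11 when 1 sample was left out, and at E8.0 0 in all 12. For E9.5 against E8.0 (17) it was 16 to 22. For the interaction (1) it was 3 with DESeq2, 6 with no filter on low counts, 2 without blood, endothelial, neural and endoderm cells, 2 with the male share, 0 in run 1 alone, and 0 to 3 when 1 sample was left out.

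Within lineages, with 2 of 5 markers the count was 1 in cardiomyocytes (main 0), 1 in the anterior second heart field (0) and 2 in cranial mesoderm (1). With cells of several lineages kept it was 1 in cardiomyocytes. With no filter it was 4 in cardiomyocytes, 3 in paraxial cells (main 1), 2 in splanchnic cells (0) and 0 in cranial mesoderm. When 1 sample was left out it was 0 to 1 in cardiomyocytes, 1 to 2 in paraxial cells, 0 to 1 in splanchnic cells and 0 to 1 in cranial mesoderm.

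Between lineages, 2 of 5 markers, which leaves fewer cells positive for 1 lineage alone and no proepicardial sum, gave 4 chains in endothelial cells (main 17), 9 in cardiomyocytes (17), 7 in the anterior second heart field (11) and 4 in the allantois (8). It turned 8 log2 differences, none past the threshold there: endothelial Col6a1 to 0.64, cardiomyocyte Col3a1 to 0.19, Col18a1 to -0.10 and Col1a2 to 0.36, anterior second heart field Col3a1 to 0.022, splanchnic Col2a1 to 0.52, cranial Col4a6 to 0.60 and allantois Col3a1 to -0.064. The cause was not tested. The endothelial genotype fit with 2 of 5 markers had too few sums and was not run. Shares of cells with a UMI fell with thinning, as the report gives. Chains under 1 CPM, such as Col8a1 and Col15a1, are limited by depth.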
